A study of Mus musculus with 24 samples.

Results

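The MAP kinase phosphatases described here are 9 genes, Dusp1, Dusp2, Dusp4, Dusp5, Dusp6, Dusp8, Dusp10, Dusp14 and Dusp16, taken by symbol from a table of 24421 mouse genes. They were measured in MIN6 cells, a beta cell line from a mouse insulin-secreting tumour, kept in medium with 22.2 mM glucose. The cells carried a plasmid for EIF2A fused to GFP, called EIF2A below, or the control plasmid for GFP alone, called GFP. Each construct was treated with 1 µM thapsigargin for 1 or 3 h, or with the vehicle DMSO, written as 0 h. Every group thus shares the line, the high glucose and a transfected plasmid, and no vehicle group of 1 or 3 h was analysed here, so thapsigargin and time after handling cannot be told apart. The 6 groups hold 4 libraries each, 24 in all. The genes lie on chromosomes 17 (Dusp1), 2 (Dusp2), 8 (Dusp4), 19 (Dusp5), 10 (Dusp6), 7 (Dusp8), 1 (Dusp10), 11 (Dusp14) and 6 (Dusp16) of build mm10. Thapsigargin inhibits the SERCA pumps that fill the endoplasmic reticulum (ER) with calcium, and the loss of calcium causes ER stress.

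Dual-specificity phosphatases remove the phosphates on threonine and on tyrosine in the activation loop of a MAP kinase and thereby switch it off. Many of their genes are transcribed within minutes to hours of kinase activation, which makes them a negative feedback on the extracellular signal-regulated kinases (ERK), the Jun N-terminal kinases (JNK) and p38. Dusp1, Dusp2, Dusp4 and Dusp5 encode nuclear inducible enzymes, and Dusp6 a cytoplasmic enzyme selective for ERK. Dusp8, Dusp10 and Dusp16 encode enzymes that prefer JNK and p38, and Dusp14 encodes a small atypical member without the kinase-binding domain of the others. In pancreatic beta cells ERK is activated by glucose and calcium entry, and JNK by inflammatory cytokines and ER stress.

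The start regions of 3 members are shown because they hold letters of binding motifs known from inducible genes. RefSeq (GRCm38.p6) gave a promoter for 8 of the 9 members, and the 250 bases before each start were searched on both strands. The cyclic AMP response element (CRE) TGACGTCA was found in 2 of the 8 members, at 2 places in Dusp8 and 1 in Dusp1, and in 1.55% of 32851 promoters of 27025 genes. The CArG box, the motif of serum response factor, was found in 1 of the 8 members, as 2 adjacent copies in Dusp5, and in 1.47% of promoters. The AP-1 motif TGANTCA, found in 6.75% of promoters, and the ATF4 composite motif TGATGNAA, found in 3.45%, were not in these windows of the 8. These letters are a description and not evidence of a bound factor. The windows follow 5′ to 3′ on the gene's strand with the motifs in capitals, a CRE in Dusp8 and Dusp1 and CArG boxes in Dusp5.
Dusp8, chr7:142095315-142095434, minus strand, 150 to 31 bases before the start: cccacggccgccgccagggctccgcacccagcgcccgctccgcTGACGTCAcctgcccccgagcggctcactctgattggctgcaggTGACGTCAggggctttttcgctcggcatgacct
Dusp1, chr17:26508553-26508672, minus strand, 200 to 81 bases before the start: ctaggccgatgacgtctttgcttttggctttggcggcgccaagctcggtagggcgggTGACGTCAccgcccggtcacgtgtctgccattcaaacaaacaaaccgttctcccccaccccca
Dusp5, chr19:53529015-53529104, plus strand, 130 to 41 bases before the start: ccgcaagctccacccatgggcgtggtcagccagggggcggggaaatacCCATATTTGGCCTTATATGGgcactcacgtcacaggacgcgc
The first base of each CRE lies 107 and 63 bases before the Dusp8 start and 143 bases before the Dusp1 start. The Dusp8 start used here lies inside the annotated gene, whose 5′ end is at 142095907 in RefSeq and 142095843 in GENCODE M21. The Dusp8 window and its CREs are thus within the gene as annotated. The 5′ end of Dusp1 is at 26508472 in RefSeq and 26562128 in GENCODE M21, so its window and CRE are within the gene in GENCODE M21 only. The CArG boxes begin 82 and 72 bases before the Dusp5 start. The Dusp5 window also overlaps an exon of an antisense transcript in GENCODE M21.

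Libraries held 10.5 to 22.1 M counts for EIF2A and 16.7 to 22.2 M for GFP. Values are counts-per-million (CPM) of the library total after TMM scaling, and 8 of the 9 members passed the filter on low counts, as did 13761 of all genes. The labels do not say that the 4 replicates are separate cultures, so p-values measure only the spread between these libraries. All 15 beta cell markers were present, at 49013 to 129345 CPM in sum, while 6 acinar markers summed to at most 1.22 CPM with Amy2a5 at 0, 5 endothelial markers to at most 2.10 CPM, 5 delta, PP and epsilon cell markers to at most 2.55 CPM and 6 mesenchymal markers to at most 13.4 CPM. Markers of alpha cells summed to 648 to 2489 CPM, of duct cells to 301 to 655 CPM and of macrophages to 9.55 to 97.4 CPM. Of the 6 markers in each of these lists, 2, 3 and 4 in turn averaged under 1 CPM. The sums thus rest on few genes, and whether such cells were present was not tested. At 3 h 6 of the 15 beta cell markers fell in each construct and 0 rose (5 fell in EIF2A and 4 in GFP with library totals in place of TMM, and 1 rose in each), and their part in the results at 3 h was not tested. Replicate 1 went against its labels. Its Eif2a level was 80.3, 96.9 and 104 CPM at 0, 1 and 3 h in the libraries labelled EIF2A, against 269, 361 and 358 CPM in those labelled GFP. Replicates 2 to 4 averaged 139, 189 and 189 CPM in EIF2A, against 78.5, 92.2 and 97.5 CPM in GFP. Whether the transgene's reads were counted is not known, and the libraries were kept in their labelled groups. Results are therefore given with all libraries and without replicate 1. "Rose" and "fell" mean an adjusted p under 0.05 in edgeR's quasi-likelihood F test on the 6 group means, unless the fit with replicate number as a block, or the one without replicate 1, is named. The comparisons at 1 and 3 h share the 0 h libraries of their construct.

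At 1 h of thapsigargin the members stood higher than at 0 h in nearly every pair of libraries with the same replicate number. Across the 8 members that passed the filter and the 4 replicates, 32 of 32 EIF2A pairs and 30 of 32 GFP pairs were higher at 1 h. The 2 exceptions were Dusp8 and Dusp16 in GFP replicate 1. These pair counts are a description, since the members share libraries, and the share of higher pairs over all genes was not computed. In replicates 2 to 4 the libraries of a number correlated at only −0.0264 to 0.312 within a construct, so pairs there have little support. The median log2 fold change of the 8 was 0.76 in EIF2A and 0.57 in GFP, beside −0.02 and −0.01 over all genes. With all libraries as unpaired groups, 1 member rose in each construct, Dusp10. In EIF2A 10.5% of all genes changed and 6.55% rose, and in GFP 8.18% changed and 5.78% rose. In the fit with the replicate block, 8 of 8 rose in each construct. In EIF2A 45.3% of all genes changed in that fit and 21.9% rose, and in GFP 44.6% changed and 22.9% rose. Without replicate 1, again 8 of 8 rose in each construct, when 20.2% and 21.2% of all genes did. The duct cell markers stood higher at 1 h too, at 348 to 422, 484 to 655 and 384 to 498 CPM in sum at 0, 1 and 3 h in EIF2A and 301 to 451, 385 to 583 and 319 to 479 CPM in GFP. Of the 3 duct markers tested, Krt7 rose at 1 h in EIF2A (0.55 ± 0.15, adjusted p = 0.0201) and none passed in GFP, and their part in the members' values was not tested.

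At 3 h the counts of members called in the unpaired test were near or below the shares of all genes that changed. In EIF2A, Dusp1, Dusp8 and Dusp16 had risen over 0 h, 3 of 8, when 36.2% of all genes changed and 19.6% rose. In GFP, Dusp8 and Dusp16 had, 2 of 8, when 33.0% of all genes changed and 18.4% rose. With the block, 6 of 8 rose and 0 fell in EIF2A, when 66.2% of all genes changed, 32.9% up and 33.3% down. In GFP 7 of 8 rose and 0 fell with the block, when 67.1% changed, 33.6% up and 33.5% down. Without replicate 1, 5 of 8 rose in EIF2A, when 62.6% of all genes changed and 31.2% rose. In GFP 6 of 8 rose, when 63.0% of all genes changed and 32.2% rose. Between 1 and 3 h, Dusp16 rose and Dusp10 fell in EIF2A, when 14.9% of all genes changed, 8.28% up and 6.62% down. In GFP, Dusp8 and Dusp16 rose and Dusp10 fell, when 9.77% changed, 5.49% up and 4.28% down. In the block fit, the members that fell between 1 and 3 h were Dusp5, Dusp6 and Dusp10 in EIF2A, when 52.7% of all genes changed and 25.9% fell, and Dusp4, Dusp5, Dusp6 and Dusp10 in GFP, when 49.7% changed and 24.5% fell. Those that rose in it were Dusp8 and Dusp16 in both constructs, when 26.7% of all genes rose in EIF2A and 25.2% in GFP. Without replicate 1, 2 rose and 4 fell in each construct between 1 and 3 h, when 49.1% of all genes changed in EIF2A and 42.2% in GFP.

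**Figure D1:**
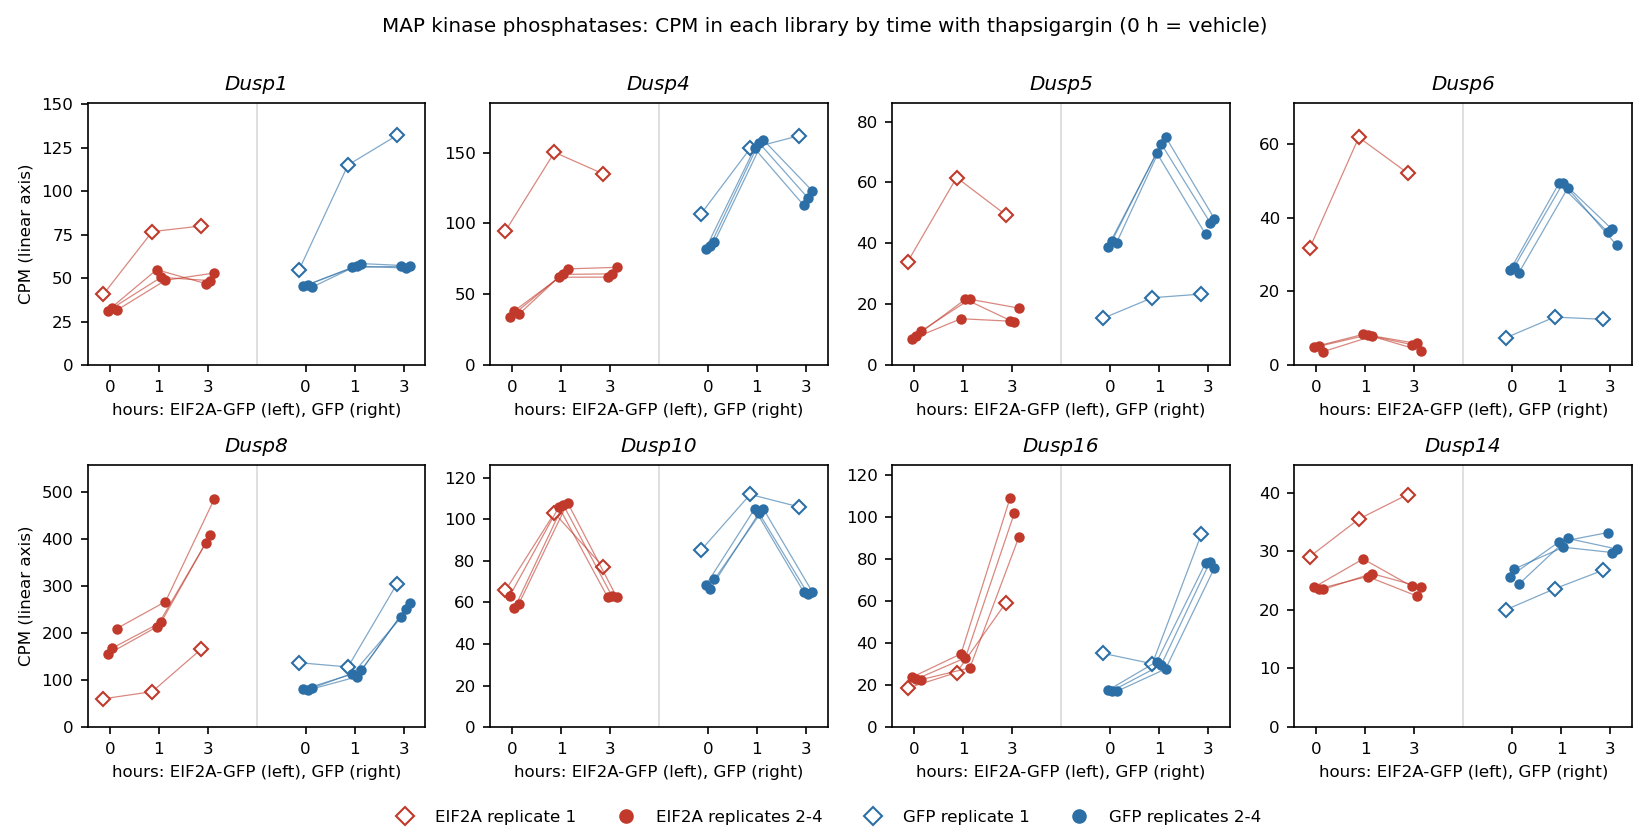
Each panel plots 1 member's CPM (linear axis from 0) in all 24 libraries, with EIF2A at 0, 1 and 3 h left and GFP right, evenly spaced, and lines join libraries of the same replicate number. Open diamonds are replicate 1 and filled circles replicates 2 to 4. Dusp10 peaks at 1 h, at 103 to 108 CPM in EIF2A, and Dusp8 and Dusp16 are highest at 3 h.

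**Figure D2:**
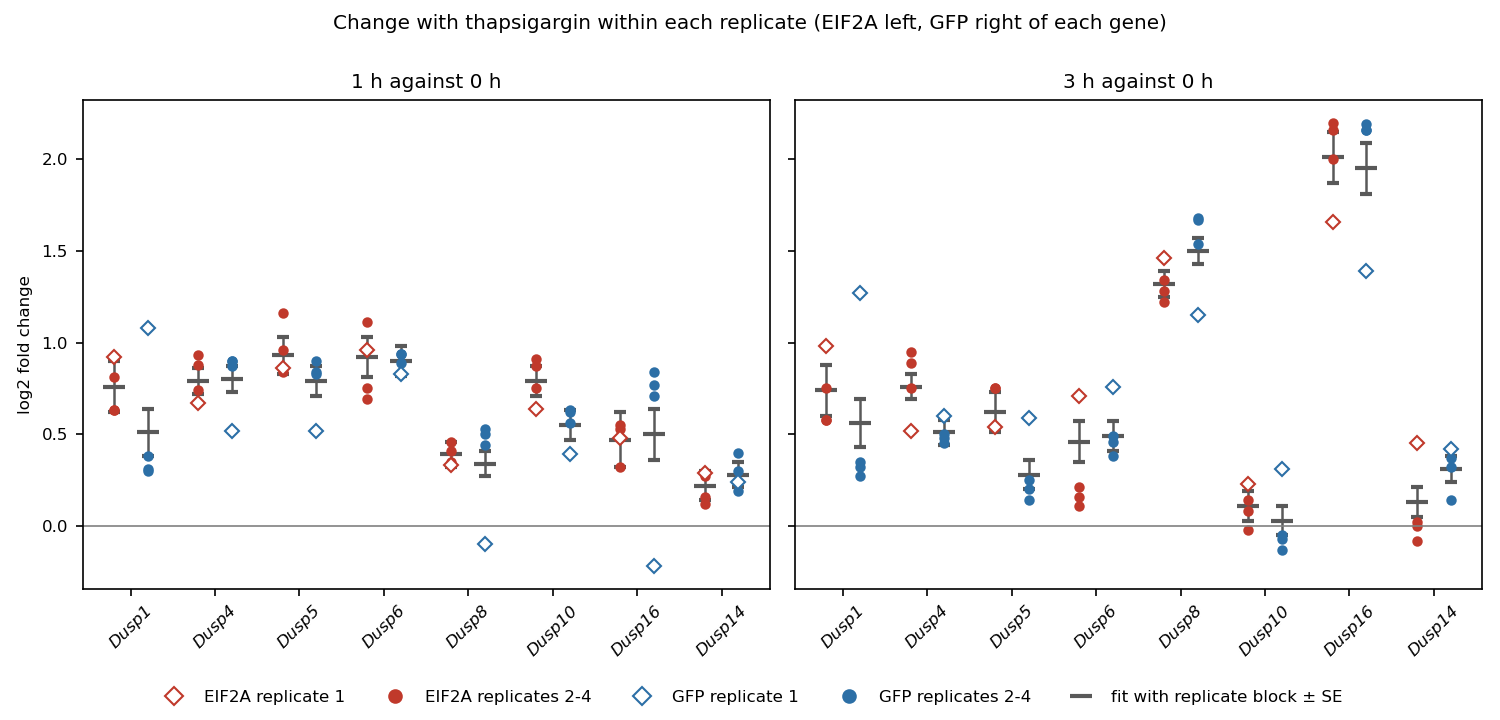
Log2 fold change of each member within a replicate at 1 h (left) and 3 h (right) against 0 h, EIF2A left and GFP right of each gene, with the estimate of the block fit ± SE as grey bars. At 1 h the points lie above 0 but for Dusp8 and Dusp16 in GFP replicate 1, and at 3 h Dusp16 reaches 1.39 to 2.20.

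Among the nuclear inducible enzymes, Dusp1, which acts mainly on p38 and JNK, stood higher at 1 h and at 3 h than at 0 h in all 8 series of libraries. The EIF2A libraries had 40.6, 31.2, 32.6 and 31.4 CPM in replicates 1 to 4 at 0 h, 76.7, 54.8, 50.4 and 48.7 CPM at 1 h, and 79.9, 46.8, 48.5 and 52.9 CPM at 3 h. The GFP libraries had 54.7, 45.3, 46.1 and 44.8 CPM at 0 h, 115, 56.1, 56.9 and 58.3 CPM at 1 h, and 132, 56.7, 55.7 and 57.0 CPM at 3 h. Within each construct the libraries at 1 and 3 h lay above all those at 0 h, and replicate 1 was the highest of its group in all 6 groups. The log2 fold change at 1 h was 0.76 ± 0.28 (SE, n = 4 a group, adjusted p = 0.0822) in EIF2A and 0.59 ± 0.27 (adjusted p = 0.226) in GFP. At 3 h it was 0.75 ± 0.28 (adjusted p = 0.0383) in EIF2A and 0.66 ± 0.27 (adjusted p = 0.0681) in GFP. In the block fit all 4 passed, at 0.76 ± 0.14 and 0.74 ± 0.14 in EIF2A (adjusted p = 3.99e-04 and 2.31e-04) and 0.51 ± 0.13 and 0.56 ± 0.13 in GFP (adjusted p = 0.00439 and 0.00122). The call in EIF2A at 3 h ended without any of replicates 2, 3 and 4 (adjusted p 0.124 to 0.145), and without EIF2A 0 h replicate 2, 3 or 4 or EIF2A 3 h replicate 1 or 4 (adjusted p 0.0506 to 0.137). Leaving out GFP 1 h or GFP 3 h replicate 1 made the change in EIF2A at 1 h pass (adjusted p = 0.0436 and 0.0258). The change in GFP at 3 h passed without GFP 1 h replicate 1 (adjusted p = 0.0356) or GFP 3 h replicate 3 (adjusted p = 0.0493). Without replicate 1 the GFP change was smaller, at 0.33 ± 0.06 at 1 h and 0.31 ± 0.06 at 3 h, and the EIF2A change was 0.69 ± 0.06 and 0.64 ± 0.06, each with an adjusted p of 9.79e-05 or less.

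Dusp2, which acts on ERK and p38 and is best known from immune cells, was near the limit of detection. Its libraries held 0 to 10 counts in EIF2A and 1 to 21 counts in GFP, and it did not pass the filter, so it was not tested. The highest value was 21 counts, in GFP 3 h replicate 4. The 6 macrophage markers summed to 28.2 to 97.4, 27.2 to 88.3 and 9.55 to 55.3 CPM at 0, 1 and 3 h in EIF2A, and to 38.8 to 68.6, 33.7 to 67.1 and 19.8 to 47.4 CPM in GFP, ranges that overlapped between times and reached lowest at 3 h. Of the 4 that were tested, 2 rose at 3 h in GFP, C1qb and Csf1r, which averaged 0.275 and 0.741 CPM over all libraries, and none passed in EIF2A. Of the 6 markers, 4 averaged under 1 CPM, so the sums do not by themselves show that macrophages were present. Any part of such cells in the Dusp2 counts was not tested. On library totals without TMM scaling, unlike the other CPM values, a count of 3 equals 0.135 CPM in the deepest library and 0.285 CPM in the shallowest. This covers counting error only, since the reads carry no molecular identifiers that the sources used here mention.

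Dusp4, whose enzyme acts on ERK, JNK and p38, stood higher at 1 h and at 3 h than at 0 h in all 8 series. In EIF2A it had 94.7, 33.6, 38.2 and 35.7 CPM in replicates 1 to 4 at 0 h, 150.3, 62.0, 64.0 and 67.9 CPM at 1 h, and 135, 62.1, 64.4 and 69.0 CPM at 3 h. In GFP it had 107, 82.2, 84.2 and 87.0 CPM at 0 h, 153, 153, 157 and 159 CPM at 1 h, and 162, 113, 118 and 123 CPM at 3 h. In EIF2A replicate 1 stood far above the other 3 at each time, so the groups overlapped, whereas in GFP all libraries at 1 and 3 h lay above those at 0 h. The log2 fold change at 1 h was 0.76 ± 0.32 (adjusted p = 0.142) in EIF2A and 0.79 ± 0.32 (adjusted p = 0.148) in GFP. With the block it was 0.79 ± 0.07 in EIF2A (adjusted p = 5.46e-09) and 0.80 ± 0.07 in GFP (adjusted p = 6.53e-10). At 3 h the block fit gave 0.76 ± 0.07 in EIF2A (adjusted p = 9.10e-10) and 0.51 ± 0.07 in GFP (adjusted p = 1.39e-07). Between 1 and 3 h it gave −0.03 ± 0.07 in EIF2A (adjusted p = 0.727) and a fall of −0.29 ± 0.07 in GFP (adjusted p = 6.23e-04). The unpaired change in EIF2A passed once EIF2A 0 h replicate 1 was left out, at 1.27 at 1 h (adjusted p = 0.00612) and 1.21 at 3 h (adjusted p = 0.0023). At 3 h it also passed without EIF2A 1 h replicate 1 (0.70, adjusted p = 0.0479). Without the whole of replicate 1 it was 0.85 ± 0.06 at 1 h and 0.86 ± 0.06 at 3 h in EIF2A, and 0.89 ± 0.05 and 0.48 ± 0.05 in GFP, all past the threshold.

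Dusp5, a nuclear phosphatase selective for ERK, was highest at 1 h in 7 of 8 series of libraries. The EIF2A libraries had 33.9, 8.54, 9.64 and 11.1 CPM in replicates 1 to 4 at 0 h, 61.6, 15.2, 21.6 and 21.6 CPM at 1 h, and 49.4, 14.4, 14.0 and 18.7 CPM at 3 h. The GFP libraries had 15.4, 38.8, 40.9 and 40.2 CPM at 0 h, 22.1, 69.7, 72.7 and 75.0 CPM at 1 h, and 23.3, 42.9, 46.8 and 48.0 CPM at 3 h. Replicate 1 was the highest library of each EIF2A group and the lowest of each GFP group, and the unpaired groups overlapped. The unpaired log2 fold change at 1 h was 0.91 ± 0.54 (adjusted p = 0.328) in EIF2A and 0.82 ± 0.52 (adjusted p = 0.431) in GFP. The block fit gave 0.93 ± 0.10 (adjusted p = 8.59e-08) and 0.79 ± 0.08 (adjusted p = 3.30e-08). At 3 h it gave 0.62 ± 0.11 in EIF2A (adjusted p = 9.66e-06) and 0.28 ± 0.08 in GFP (adjusted p = 0.00493). Between 1 and 3 h Dusp5 fell in the block fit, at −0.31 ± 0.09 in EIF2A (adjusted p = 0.00721) and −0.51 ± 0.08 in GFP (adjusted p = 1.04e-05). Without replicate 1 and without the block, the change at 1 h was 1.01 ± 0.14 in EIF2A and 0.86 ± 0.10 in GFP, both past the threshold. At 3 h it was 0.70 ± 0.14 in EIF2A (adjusted p = 2.73e-04), and in GFP it was 0.20 ± 0.10 (adjusted p = 0.0909).

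Dusp6, the cytoplasmic ERK phosphatase, showed the same early peak and the widest distance between libraries. In EIF2A it had 31.8, 4.95, 5.06 and 3.61 CPM in replicates 1 to 4 at 0 h, 61.8, 8.31, 8.14 and 7.80 CPM at 1 h, and 52.1, 5.52, 5.85 and 3.90 CPM at 3 h. In GFP it had 7.35, 25.7, 26.7 and 25.0 CPM at 0 h, 13.0, 49.3, 49.5 and 48.0 CPM at 1 h, and 12.4, 36.1, 36.8 and 32.5 CPM at 3 h. In each of the 8 series the value at 1 h was the highest. The unpaired test at 1 h gave 0.90 ± 0.86 (adjusted p = 0.617) in EIF2A and 0.91 ± 0.85 (adjusted p = 0.649) in GFP. With the block, Dusp6 rose at 1 h by 0.92 ± 0.11 in EIF2A (adjusted p = 1.52e-07) and 0.90 ± 0.08 in GFP (adjusted p = 1.06e-09). At 3 h it gave 0.46 ± 0.11 (adjusted p = 5.86e-04) and 0.49 ± 0.08 (adjusted p = 4.56e-06). Between 1 and 3 h it fell in that fit, at −0.46 ± 0.10 in EIF2A (adjusted p = 3.37e-04) and −0.41 ± 0.08 in GFP (adjusted p = 6.96e-05). Without replicate 1 the change at 1 h was 0.81 ± 0.14 in EIF2A and 0.92 ± 0.08 in GFP, both past the threshold. In EIF2A at 3 h it was 0.15 ± 0.15 (adjusted p = 0.409), so that call rests on replicate 1, and in GFP it was 0.44 ± 0.08 (adjusted p = 9.55e-05).

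Of the JNK and p38 phosphatases, Dusp16 had the largest change of the 8 members tested. The EIF2A libraries had 18.6, 23.8, 22.9 and 22.6 CPM in replicates 1 to 4 at 0 h, 26.0, 34.9, 33.0 and 28.2 CPM at 1 h, and 59.0, 109, 102 and 90.4 CPM at 3 h. The GFP libraries had 35.1, 17.5, 17.3 and 17.0 CPM at 0 h, 30.2, 31.2, 29.6 and 27.7 CPM at 1 h, and 91.8, 78.3, 78.8 and 75.9 CPM at 3 h. Every library at 3 h lay above every library of its construct at 0 and 1 h. Dusp16 rose by 2.04 ± 0.21 on the log2 scale at 3 h in EIF2A, 4.10-fold (adjusted p = 1.90e-07), and by 1.91 ± 0.20 in GFP, 3.75-fold (adjusted p = 4.77e-07). Most of it came after 1 h, at 1.56 ± 0.20 between 1 and 3 h in EIF2A (adjusted p = 4.51e-05) and 1.45 ± 0.20 in GFP (adjusted p = 1.06e-04). These 4 calls held in the 28 fits that left out libraries. At 1 h the change was 0.47 ± 0.20 in EIF2A (adjusted p = 0.148) and 0.45 ± 0.20 in GFP (adjusted p = 0.197). With the block both passed, at 0.47 ± 0.15 (adjusted p = 0.0193) and 0.50 ± 0.14 (adjusted p = 0.0106). Leaving out GFP 0 h replicate 1, where Dusp16 was at 35.1 CPM, made both pass in the unpaired test, at 0.47 in EIF2A (adjusted p = 0.0377) and 0.78 in GFP (adjusted p = 0.00353). Without all of replicate 1 they were 0.47 ± 0.09 and 0.77 ± 0.08 (adjusted p = 2.15e-04 and 5.40e-07).

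Dusp8 had its highest values at 3 h too. In EIF2A it had 60.2, 155, 168 and 209.5 CPM in replicates 1 to 4 at 0 h, 75.5, 213, 223 and 267 CPM at 1 h, and 166, 391, 408 and 486 CPM at 3 h. In GFP it had 137, 80.3, 78.8 and 83.3 CPM at 0 h, 128, 113, 107 and 121 CPM at 1 h, and 305, 234, 252 and 265 CPM at 3 h. Replicate 1 was the lowest of each EIF2A group and the highest of each GFP group. In GFP the 3 h libraries lay above all others, while in EIF2A replicate 1 at 3 h overlapped the earlier groups. Dusp8 rose by 1.29 ± 0.36 at 3 h in EIF2A, 2.45-fold (adjusted p = 0.00677), and by 1.47 ± 0.36 in GFP, 2.78-fold (adjusted p = 0.00297). Both calls ended without replicate 2 or without replicate 3, at adjusted p 0.0698 to 0.0756 in EIF2A and 0.0511 to 0.0552 in GFP. Between 1 and 3 h it rose by 1.17 ± 0.36 in GFP (adjusted p = 0.0410), and the change in EIF2A was 0.90 ± 0.35 (adjusted p = 0.0949). The GFP call ended in 11 of 24 fits that left out 1 library, each of the 8 without a GFP library of 1 or 3 h (adjusted p up to 0.0971) and those without EIF2A 0 h replicate 2, EIF2A 1 h replicate 2 or GFP 0 h replicate 4 (adjusted p up to 0.0507). It ended too without replicate 2, 3 or 4 (adjusted p 0.179 to 0.314) and with no filter on low counts (1.16, adjusted p = 0.0671). The EIF2A change between 1 and 3 h passed without EIF2A 3 h replicate 1 (1.14, adjusted p = 0.0209) or EIF2A 0 h replicate 1 (adjusted p = 0.0480). At 1 h the unpaired change was 0.40 ± 0.35 in EIF2A (adjusted p = 0.576) and 0.31 ± 0.35 in GFP (adjusted p = 0.745). With the block it passed at 1 h, at 0.39 ± 0.07 (adjusted p = 1.45e-04) and 0.34 ± 0.07 (adjusted p = 7.17e-04), and the changes at 3 h were 1.32 ± 0.07 (adjusted p = 1.67e-13) and 1.50 ± 0.07 (adjusted p = 2.23e-14). Without replicate 1 they were 0.41 ± 0.10 and 0.49 ± 0.10 at 1 h and 1.27 ± 0.10 and 1.63 ± 0.10 at 3 h, in EIF2A and GFP in turn, all past the threshold.

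Dusp10 had another course, with a peak at 1 h and a return by 3 h. The EIF2A libraries had 65.8, 63.3, 57.1 and 59.2 CPM in replicates 1 to 4 at 0 h, 103, 106, 107 and 108 CPM at 1 h, and 77.1, 62.4, 62.9 and 62.7 CPM at 3 h. The GFP libraries had 85.3, 68.2, 66.5 and 71.1 CPM at 0 h, 112, 105, 103 and 105 CPM at 1 h, and 106, 65.2, 64.2 and 65.1 CPM at 3 h. All libraries at 1 h lay above those at 0 h, and at 3 h replicate 1 was still at 106 CPM in GFP and at 77.1 CPM in EIF2A. Dusp10 rose at 1 h by 0.79 ± 0.13 in EIF2A, 1.73-fold (adjusted p = 4.21e-04), and by 0.55 ± 0.13 in GFP, 1.46-fold (adjusted p = 0.00960). Between 1 and 3 h it fell, at −0.68 ± 0.13 in EIF2A (adjusted p = 0.00112) and −0.50 ± 0.13 in GFP (adjusted p = 0.0152). At 3 h its difference from 0 h was 0.11 ± 0.13 in EIF2A (adjusted p = 0.550) and 0.05 ± 0.13 in GFP (adjusted p = 0.828). The rise in EIF2A held in all 28 fits that left out libraries. The rise in GFP ended without replicate 2, 3 or 4 (adjusted p 0.112 to 0.205), and so did the fall in GFP (adjusted p 0.179 to 0.243). That fall also ended without GFP 3 h replicate 2, 3 or 4 alone (adjusted p 0.0579 to 0.0708). The fall in EIF2A ended without replicate 2 or 3 (adjusted p = 0.0528 and 0.0530). In the block fit Dusp10 rose at 1 h by 0.79 ± 0.08 in EIF2A (adjusted p = 5.12e-08) and 0.55 ± 0.08 in GFP (adjusted p = 3.50e-06). Between 1 and 3 h that fit gave −0.68 ± 0.08 (adjusted p = 1.55e-07) and −0.53 ± 0.08 (adjusted p = 4.88e-06). With the block and without replicate 1 together, the rise was 0.84 ± 0.05 and 0.60 ± 0.04, and the fall −0.78 ± 0.04 and −0.69 ± 0.04, all past the threshold.

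Dusp14, the atypical member, had the smallest change of the 8 at 1 h. In EIF2A it had 29.1, 23.9, 23.6 and 23.5 CPM in replicates 1 to 4 at 0 h, 35.5, 28.7, 25.7 and 26.2 CPM at 1 h, and 39.7, 24, 22.4 and 23.9 CPM at 3 h. In GFP it had 20.0, 25.7, 27.0 and 24.4 CPM at 0 h, 23.6, 31.6, 30.7 and 32.2 CPM at 1 h, and 26.8, 33.2, 29.8 and 30.4 CPM at 3 h. At 1 h the groups overlapped with those at 0 h through replicate 1, which was the highest of each EIF2A group and the lowest of each GFP group. The unpaired changes did not pass, at 0.22 ± 0.16 in EIF2A (adjusted p = 0.481) and 0.28 ± 0.16 in GFP (adjusted p = 0.355) at 1 h. In the block fit they passed, at 0.22 ± 0.08 (adjusted p = 0.0224) and 0.28 ± 0.07 (adjusted p = 0.00218). At 3 h the block fit gave 0.13 ± 0.08 in EIF2A (adjusted p = 0.153) and 0.31 ± 0.07 in GFP (adjusted p = 3.83e-04). Without replicate 1 the changes at 1 h were 0.18 ± 0.07 in EIF2A (adjusted p = 0.0403) and 0.29 ± 0.06 in GFP (adjusted p = 9.42e-04). At 3 h they were −0.02 ± 0.07 in EIF2A (adjusted p = 0.844) and 0.28 ± 0.06 in GFP (adjusted p = 6.64e-04), and between 1 and 3 h Dusp14 fell in EIF2A, at −0.20 ± 0.07 (adjusted p = 0.0175).

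Levels were compared between genes only as CPM per kb of exon, since long transcripts yield more fragments. In replicates 2 to 4, Dusp8 was first in EIF2A at every time, at 36.4 ± 5.87, 48.1 ± 5.90 and 88.0 ± 10.5 CPM per kb (SD, n = 3) at 0, 1 and 3 h. In GFP, Dusp4 was first at 0 and 1 h, at 30.8 ± 0.890 and 57.1 ± 1.04 CPM per kb, and at 3 h Dusp8, at 51.4 ± 3.18, stood above Dusp4, at 43.0 ± 1.89. Dusp10 was the second at 0 and 1 h in both constructs, at 19.7 ± 1.05 and 35.3 ± 0.330 CPM per kb in EIF2A and 22.6 ± 0.768 and 34.3 ± 0.336 in GFP. Some neighbours in this order had overlapping SD ranges, such as Dusp4 at 13.1 ± 0.843 and Dusp14 at 12.2 ± 0.101 in EIF2A at 0 h, and Dusp8 at 16.6 ± 0.477 and Dusp5 at 16.2 ± 0.423 in GFP at 0 h. The last of the tested members at 0 h was Dusp6 in EIF2A, at 1.45 ± 0.258 CPM per kb, and Dusp16 in GFP, at 2.21 ± 0.0321. Dusp2 lay below all of them, at 0.229 ± 0.225 CPM per kb or less. In EIF2A replicate 1 Dusp8 was not first, at 12.4, 15.5 and 34.0 CPM per kb at 0, 1 and 3 h beside 34.6, 54.9 and 49.4 for Dusp4.

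**Figure D3:**
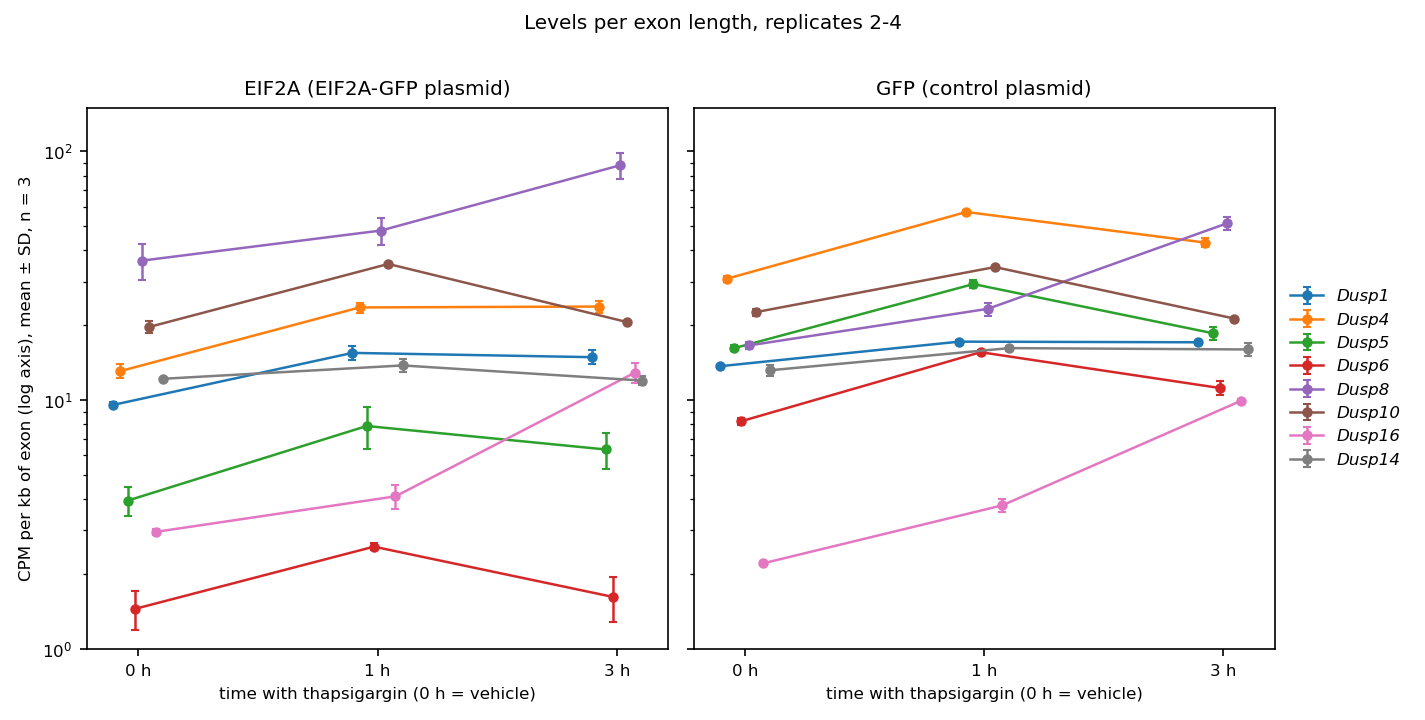
Mean CPM per kb of exon (log axis) ± SD over replicates 2 to 4 for the 8 tested members, EIF2A left and GFP right, at 0, 1 and 3 h. In these replicates Dusp8 leads in EIF2A throughout, and in GFP it passes Dusp4 only at 3 h, at 51.4 CPM per kb.

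Between constructs, Dusp6 and Dusp5 had the largest differences in replicates 2 to 4, and replicate 1 lay on the other side. With all libraries no member differed between EIF2A and GFP, when 0.0218%, 1.02% and 0% of all genes did at 0, 1 and 3 h. At 0 h 0.00727% of all genes were higher and 0.0145% lower. At an unadjusted p under 0.05 there were 3006, 3901 and 2901 of 13761 genes at 0, 1 and 3 h. DESeq2, which gave no p for Dusp6, called 1 of 7 members, Dusp4 at 1 h (−0.84), when it called 15.3% of genes. Without replicate 1, 7 of 8 members differed at 0 h, 2 higher and 5 lower in EIF2A, when 64.8% of all genes differed. At 1 h 6 of 8 did, when 70.0% of all genes did, and at 3 h 7 of 8, when 67.6% did. Differences were thus widespread in that fit, and the count of members is not a result about them. Dusp6 in replicates 2 to 4 averaged 4.54 ± 0.807, 8.08 ± 0.261 and 5.09 ± 1.04 CPM in EIF2A at 0, 1 and 3 h, against 25.8 ± 0.864, 49.0 ± 0.836 and 35.1 ± 2.32 CPM in GFP. That is a log2 difference of −2.49 ± 0.12, −2.60 ± 0.10 and −2.78 ± 0.10, each with an adjusted p of 1.14e-12 or less. Dusp5 differed by −2.05 ± 0.13, −1.90 ± 0.11 and −1.55 ± 0.11 at 0, 1 and 3 h, and Dusp4 by −1.24 ± 0.06, −1.28 ± 0.06 and −0.85 ± 0.06. In the other direction, Dusp8 was higher in EIF2A by 1.13 ± 0.10, 1.05 ± 0.10 and 0.78 ± 0.10. Dusp16 was higher by 0.42 ± 0.09 at 0 h and 0.37 ± 0.07 at 3 h, and its difference at 1 h was 0.12 ± 0.08 (adjusted p = 0.191). Dusp1 was lower, at −0.52 ± 0.06, −0.16 ± 0.06 and −0.19 ± 0.06. Dusp14 was lower at 1 and 3 h, at −0.23 ± 0.06 and −0.41 ± 0.06, and Dusp10 at 0 h, at −0.19 ± 0.05.

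In replicate 1 the log2 ratio of the library labelled EIF2A to that labelled GFP was 2.11, 2.24 and 2.07 for Dusp6 at 0, 1 and 3 h, and 1.14, 1.48 and 1.08 for Dusp5. For Dusp8 it was −1.19, −0.76 and −0.88. The sign was thus opposite to that of replicates 2 to 4 for Dusp5, Dusp6, Dusp8, Dusp14 and Dusp16 at all 3 times, and for Dusp10 at 1 h, as was that of Eif2a. Dusp1 and Dusp4 kept their sign, at −0.43, −0.59 and −0.72 for Dusp1 and −0.17, −0.03 and −0.26 for Dusp4. Leaving out 1 library of replicate 1 was enough for some differences to pass. These were Dusp4 at 0 h (−1.33), 1 h (−1.27) and 3 h (−0.98) and Dusp5 at 0 h (−1.80) and 1 h (−1.62), each without the EIF2A library of that time. The same held of Dusp6 at 1 h (−2.31) and 3 h (−2.53) and Dusp8 at 1 h (1.00). Dusp4 at 1 h (−0.85) also passed without EIF2A 0 h replicate 1. The shares of all genes that passed in these single-library fits are not given here. Without the whole of replicate 1 they were 64.8%, 70.0% and 67.6% at 0, 1 and 3 h, so these passes are not a result about the members. With the shared replicate number as a block, Dusp1 and Dusp4 were lower in EIF2A at 0 h (−0.50 ± 0.13 and −0.95 ± 0.19, adjusted p = 0.0292 and 0.00913), when 4.42% of all genes were. Dusp4 was lower too at 1 h (−0.99 ± 0.19, adjusted p = 0.00371) and 3 h (−0.71 ± 0.19, adjusted p = 0.0359), when 10.7% and 3.66% of all genes were. These calls rest on a number that does not pair libraries across constructs, where the correlation between libraries of the same number was −0.663 to −0.159.

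**Figure D4:**
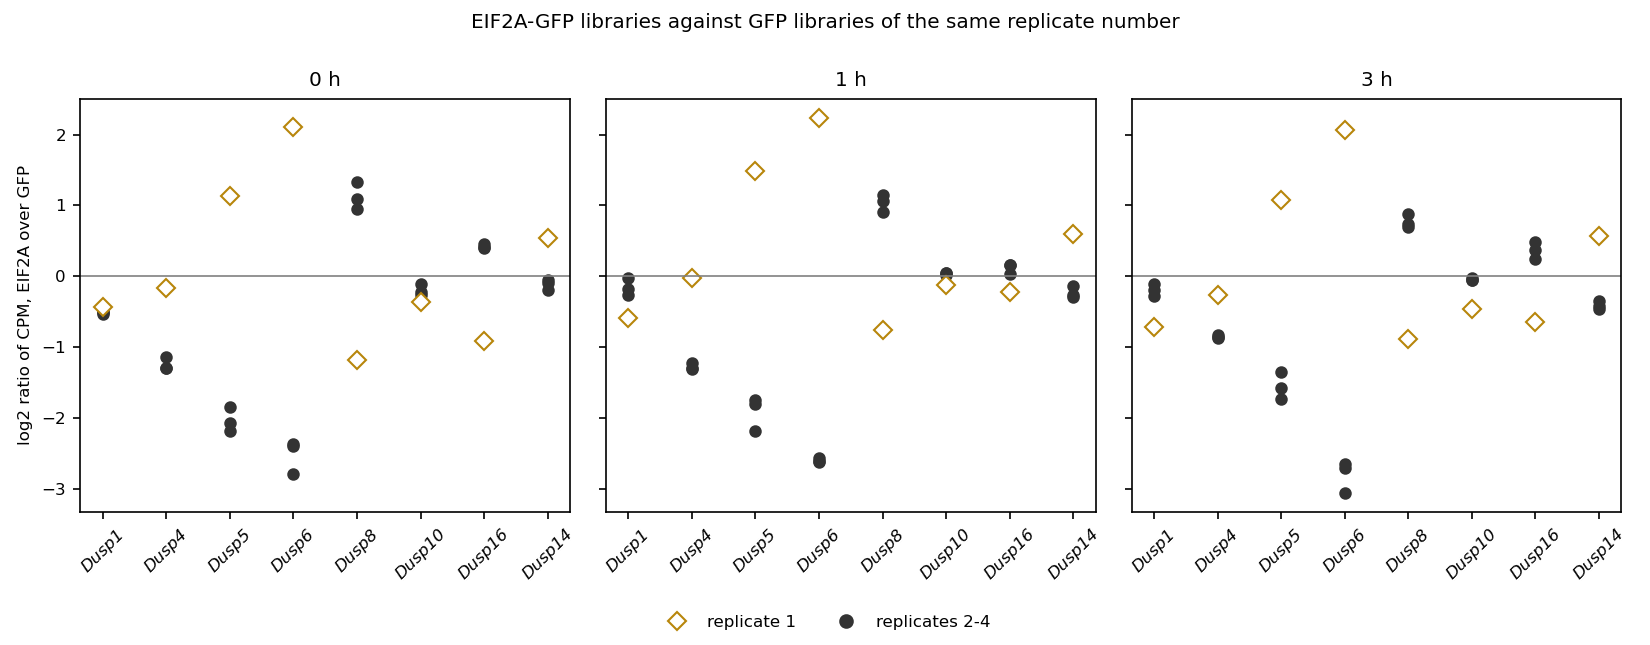
Log2 ratio of CPM, EIF2A over GFP, between libraries of the same replicate number at 0, 1 and 3 h. Filled circles are replicates 2 to 4 and open diamonds replicate 1, which lies on the other side of 0 for Dusp5, Dusp6, Dusp8, Dusp14 and Dusp16 in each panel.

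The comparison of the time courses asked whether the response to thapsigargin differed between constructs, as the response in EIF2A minus that in GFP. With all libraries no member passed at 1 or 3 h, when 0% of all genes did (72 and 146 genes had an unadjusted p under 0.05), and DESeq2 called none of the 7 it tested, which leave out Dusp6. Without replicate 1, Dusp1 responded more in EIF2A, by 0.36 ± 0.08 at 1 h (adjusted p = 0.0415) and 0.33 ± 0.08 at 3 h (adjusted p = 0.0291). Dusp4 responded more in EIF2A at 3 h, by 0.39 ± 0.08 (adjusted p = 0.0103). In that fit 0.816% of all genes differed at 1 h and 4.12% at 3 h. In replicate 1 the Dusp1 response was 0.92 in EIF2A and 1.08 in GFP at 1 h, the reverse order of replicates 2 to 4 (0.63 to 0.81 in EIF2A, 0.30 to 0.38 in GFP). With the block and without replicate 1 together, Dusp5 (0.48 ± 0.12, adjusted p = 0.00473), Dusp8 (−0.35 ± 0.06, adjusted p = 5.68e-05) and Dusp14 (−0.29 ± 0.09, adjusted p = 0.0348) passed as well at 3 h, when 14.2% of all genes did. At 1 h Dusp10 (0.23 ± 0.06, adjusted p = 0.0201) and Dusp16 (−0.30 ± 0.09, adjusted p = 0.0428) passed in that fit, when 7.62% did. With all libraries the Dusp16 difference at 1 h had the other sign, at 0.02 ± 0.28.

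Dusp8 and Dusp16 had the most similar pattern of any pair of members across the 24 libraries. Pearson's r was taken on log2 CPM after the mean of each construct and replicate was removed, over 10907 genes that averaged 5 CPM or more, and is a description because the libraries share their treatment times. Dusp8 and Dusp16 had r = 0.985 with each other, and r of −0.164 and −0.193 with Dusp10. Dusp4 and Dusp5 had r = 0.937, Dusp5 and Dusp6 0.878, and Dusp6 and Dusp10 0.883. Among the genes most like Dusp8 were Trib3, a pseudokinase (0.992), and Sesn2, a sestrin (0.992). Those most like Dusp16 were Nfe2l1, a transcription factor (0.992), Klhl22, an adaptor of a ubiquitin ligase (0.991), and Nfkbia, an inhibitor of NF-κB (0.991). Dusp10 was most like Clu, an extracellular chaperone (0.965), the protease gene Ctsl (0.959) and the chaperone gene Hspa8 (0.959). Dusp4 was most like Etfdh, a mitochondrial dehydrogenase (0.981), Zc3h10 (0.973) and the histone demethylase gene Kdm1a (0.972). The closest genes to Dusp5 were Iqgap3 (0.96), Pfkp (0.945) and Chgb (0.945), and to Dusp6 they were Nnt (0.957), Pcx (0.955) and Kif20b (0.953). For Dusp1 they were Apobec3 (0.934), Cdca2 (0.933) and Btg2 (0.922), and for Dusp14 Bag3 (0.928), Trip11 (0.915) and Pabpc4 (0.909).

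At 3 h with TMM scaling, more of the other dual-specificity phosphatases, MAP kinases and MAP2 kinases fell than rose. With library totals alone this did not hold for the MAP kinases in GFP or for the MAP2 kinases in either construct. The MAP kinase and MAP2 kinase counts rest on few genes, when 16.6% of all genes fell in EIF2A and 14.6% in GFP. They are a description and give no direction for these lists. Of 15 other dual-specificity phosphatase and related genes, 13 were tested, and at 1 h 0 rose and 4 fell in EIF2A and 0 rose and 2 fell in GFP, when 3.94% and 2.39% of all genes fell. At 3 h 3 rose and 5 fell in EIF2A and 1 rose and 4 fell in GFP, when 16.6% and 14.6% of all genes fell. The medians were −0.17 in EIF2A and −0.09 in GFP, beside −0.01 and −0.00 over all genes. Dusp23 fell at 3 h, at −1.11 ± 0.13 in EIF2A (adjusted p = 9.93e-07) and −0.81 ± 0.13 in GFP (adjusted p = 4.39e-05). Dusp18 fell, at −0.71 ± 0.10 in EIF2A and −0.63 ± 0.10 in GFP. Of the 13 MAP kinases, all tested, none passed at 1 h in either construct, and at 3 h 0 rose and 3 fell in each. Mapk13, a p38 kinase, fell, at −0.78 ± 0.26 in EIF2A (adjusted p = 0.0223) and −0.71 ± 0.26 in GFP (adjusted p = 0.0369). Mapk3, which encodes ERK1, fell at 3 h, at −0.70 ± 0.21 in EIF2A, and Mapk12, another p38 kinase, fell at −0.27 ± 0.09 in GFP. Of 7 MAP2 kinases, 1 rose and 2 fell at 3 h in EIF2A and 0 rose and 1 fell in GFP. Map2k4, an activator of JNK and p38, fell, at −0.56 ± 0.15 in EIF2A (adjusted p = 0.00579) and −0.54 ± 0.15 in GFP (adjusted p = 0.00877), and Map2k2 fell, at −0.55 ± 0.19 in EIF2A. With library totals alone, which moved the median of all genes at 3 h to 0.15 in EIF2A and 0.12 in GFP, 1 MAP kinase rose and 2 fell in EIF2A and 1 rose and 0 fell in GFP, with medians of 0.04 and 0.05. Of the MAP2 kinases 1 rose and 0 fell in EIF2A and 1 rose and 1 fell in GFP under that scaling. The other dual-specificity genes then had 3 up and 4 down in EIF2A and 2 up and 4 down in GFP. Mapk13 in GFP no longer passed (−0.59 ± 0.23, adjusted p = 0.0549), nor did Map2k4 in EIF2A (−0.41 ± 0.16, adjusted p just above the threshold), while Dusp23 still fell in both (−0.95 ± 0.12 and −0.69 ± 0.12).

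Upstream kinases and targets of ERK changed in a few genes by the unpaired test of all libraries. Of 23 MAP3 kinases, 21 were tested, and at 3 h 3 rose and 4 fell in EIF2A and 2 rose and 3 fell in GFP, when 19.6% of all genes rose and 16.6% fell in EIF2A and 18.4% rose and 14.6% fell in GFP. With library totals alone 4 rose and 0 fell in EIF2A and 2 rose and 0 fell in GFP. Map3k14, the NF-κB-inducing kinase, rose by 1.37 ± 0.23 in EIF2A (adjusted p = 6.06e-05) and 1.29 ± 0.22 in GFP (adjusted p = 1.26e-04). Of 14 tested genes of Ras and ERK feedback, such as Sprouty genes, 1 rose at 3 h in each construct and 0 fell. It was Errfi1, an inhibitor of the EGF receptor, at 0.92 ± 0.26 in EIF2A (adjusted p = 0.00861) and 0.87 ± 0.26 in GFP (adjusted p = 0.0131). Of 15 tested genes that ERK is known to induce or act on, 1 rose and 0 fell at 3 h in EIF2A and 3 rose and 0 fell in GFP. Myc rose by 1.60 ± 0.35 in EIF2A (adjusted p = 0.00104) and 1.51 ± 0.35 in GFP (adjusted p = 0.00177). Of 19 scaffolds and effectors of MAP kinases, 2 rose and 0 fell at 1 h in each construct, and at 3 h 5 rose and 3 fell in EIF2A and 4 rose and 2 fell in GFP (6 and 1 in EIF2A and 5 and 0 in GFP with library totals alone, which left 1 past the threshold at 1 h in each). The 2 at 1 h were Mapk8ip2, a scaffold of JNK, at 0.80 ± 0.11 in EIF2A and 0.71 ± 0.11 in GFP, and Zfp36, an mRNA-decay factor, at 0.74 ± 0.23 in EIF2A and 0.79 ± 0.23 in GFP. Mknk1, a kinase activated by ERK and p38, rose at 3 h by 0.87 ± 0.09 in EIF2A (adjusted p = 1.89e-07) and 0.85 ± 0.09 in GFP (adjusted p = 2.95e-07). More genes passed without replicate 1. At 1 h 4 of the 15 ERK-linked genes then rose and 2 fell in EIF2A, and 9 rose and 1 fell in GFP, with medians of 0.07 and 0.20, when 20.2% of all genes rose in EIF2A and 21.2% in GFP. Of the 13 MAP kinases 1 rose and 7 fell in EIF2A at 1 h and 1 rose and 4 fell in GFP, when 21.8% and 18.2% of all genes fell.

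Without replicate 1, when 31.9% of all genes were higher and 32.9% lower in EIF2A at 0 h, many genes of the ERK lists were lower too. Of the 14 Ras and ERK feedback genes, 2 were higher and 10 lower in EIF2A at 0 h, with a median of −0.52 beside 0.00 over all genes, and of the 15 ERK-linked genes 3 were higher and 10 lower, with a median of −0.94. The leading genes were Spred1 (−5.64 ± 0.23) and Spry4 (−2.15 ± 0.11), inhibitors of Ras signalling, and Spp1 (−4.34 ± 0.08), which encodes osteopontin, and Elk3 (−5.03 ± 0.15), an ETS-domain factor. With all libraries none of either list passed at 0 h. Reads of overlapping genes cannot be told apart where counting ignored strand, and the strand setting is not given in the sources used here. Members with such neighbours in GENCODE M21 are Dusp10 (1700056E22Rik), Dusp16 (antisense Gm36328), Dusp8 (Gm32786), Dusp1 (Ergic1) and Dusp5. In bulk RNA, fewer cells with a transcript and less of it per cell cannot be told apart.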

How the data were processed

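PolyA RNA of 24 libraries was read as stranded mRNA-seq, per the labels' protocols, and STAR, bcl2fastq and build mm10 stand in the submitters' processing notes. No source used here gives the counter, annotation or strand setting. The authors deposited raw counts for 24421 genes. The 2 lines without a gene name were left out. Their share of gene counts and these lines together was 11.7 to 18.4% in EIF2A and 11.3 to 13.6% in GFP. It was highest, at 17.7 to 18.4%, in EIF2A 0 h replicates 2 to 4, and its part in the results was not tested. Library totals were 10.5 to 22.2 M counts.

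Counts were scaled by TMM and tested with edgeR 4.0.16 (R 4.3.3, limma 3.58.1), using the quasi-likelihood F test, robust fitting and 6 group means (18 residual degrees of freedom), after filterByExpr (minimum count 10, minimum total 15). Benjamini-Hochberg adjustment ran over 13761 genes, and a call is an adjusted p under 0.05. SE is the absolute log2 fold change over the square root of F. Single-value plots were drawn with matplotlib 3.10.9 in Python 3.11.15. The statistics were tested on simulated data with a common dispersion and no replicate effect, which do not cover the pattern of replicate 1.

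Replicate numbers come from the titles. Deviations from the group means correlated at 0.510 to 0.933 between libraries of the same number within a construct (24 pairs, the own number best in 22), so they were treated as pairs there, and at −0.663 to −0.159 between constructs (36 pairs). Without replicate 1 these were −0.0264 to 0.312 and −0.0681 to 0.313, so the pairing rests on replicate 1. The block fit has 12 residual degrees of freedom within a construct and 15 between constructs.

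The alternatives were RLE scaling, library totals alone, no filter, DESeq2 1.42.0, the block, and leaving out each replicate number or each of the 24 libraries. Lengths and overlaps came from GENCODE M21 and promoters from RefSeq. The members and gene lists were chosen with earlier results of these data known. The genes named from each list are the 2 with the lowest p in a comparison. Some genes that the naming rules select are not reported here.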

Additional observations from a re-analysis of the deposited data

Results flagged for a closer look

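Of 48 group values of the 8 tested members, 23 had 1 library far from the other 3, and each time it was replicate 1, as the highest in 19 and the lowest in 4. The gap to the nearest library, as a share of the range of the 4, exceeded Dixon's 95% critical value, which chance passes in about 1 of 20 groups. The share of such values over all genes was not computed, and the members share libraries. The count is thus a description and not a result about the members. In EIF2A at 0 h replicate 1 was the highest for Dusp1 (40.6 CPM), Dusp4 (94.7 CPM), Dusp5 (33.9 CPM), Dusp6 (31.8 CPM) and Dusp14 (29.1 CPM). At 1 h it was the highest for Dusp4 (150.3 CPM), Dusp5 (61.6 CPM) and Dusp6 (61.8 CPM), and at 3 h for Dusp4 (135 CPM), Dusp5 (49.4 CPM), Dusp6 (52.1 CPM), Dusp10 (77.1 CPM) and Dusp14 (39.7 CPM). In GFP it was the highest for Dusp1 at 0, 1 and 3 h (54.7, 115 and 132 CPM), for Dusp8 (137 CPM) and Dusp16 (35.1 CPM) at 0 h, and for Dusp10 at 3 h (106 CPM). It was the lowest in GFP for Dusp5 at 0 h (15.4 CPM) and 1 h (22.1 CPM) and for Dusp6 at 0 h (7.35 CPM) and 1 h (13.0 CPM).

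Without replicate 1 the response to thapsigargin differed between constructs by the test of the difference itself for Dusp1 at 1 h (0.36) and 3 h (0.33) and for Dusp4 at 3 h (0.39), each larger in EIF2A. With all libraries none of these passed.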

How the results depend on the processing

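With the replicate block, the counts of the 8 members past the threshold were 8, 6 and 5 in EIF2A (1 h over 0 h, 3 h over 0 h, 3 h over 1 h), 8, 7 and 6 in GFP, and 2, 1 and 1 between constructs at 0, 1 and 3 h, where 9.69%, 21.0% and 7.66% of all genes passed. In the time comparisons of that fit, 45.3%, 66.2% and 52.7% of all genes passed in EIF2A and 44.6%, 67.1% and 49.7% in GFP. With the block and without replicate 1 together they were 8, 5 and 6 in EIF2A, 8, 7 and 6 in GFP, 7, 6 and 7 between constructs, and 3 and 5 for the difference in response at 1 and 3 h. Of all genes 51.5%, 68.2% and 58.1% passed in that fit in EIF2A, 51.9%, 70.1% and 54.3% in GFP, and 70.0%, 74.5% and 73.1% between constructs, so the members' shares between constructs are not a result about them. For the difference in response 7.62% and 14.2% of all genes passed in it at 1 and 3 h. DESeq2, which gave no p for Dusp6, called 2 of 7 in EIF2A at 1 h, adding Dusp1 (0.76, adjusted p = 0.0429), and 1 between constructs at 1 h. In these 2 comparisons DESeq2 called 16.4% and 15.3% of genes. Over the 28 fits that left out libraries, the counts ranged 1 to 8, 1 to 5 and 1 to 6 in EIF2A, 0 to 8, 1 to 6 and 1 to 6 in GFP, and 0 to 7, 0 to 6 and 0 to 7 between constructs. For the difference in response they ranged 0 to 1 at 1 h and 0 to 2 at 3 h. The share of all genes moved as well. In EIF2A at 1 h it was 10.5% with all libraries and 42.0% without replicate 1, so these ranges are not a result about the members.

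With library totals alone the median of all genes moved to 0.15 (EIF2A) and 0.12 (GFP) at 3 h over 0 h, 0.17 and 0.11 at 3 h over 1 h, and −0.13 between constructs at 1 h. All genes then split into 3813 higher and 1335 lower in EIF2A at 3 h, where TMM gave 2702 and 2283, and into 3361 and 1345 in GFP, where TMM gave 2538 and 2005. At 3 h over 1 h the split was 2604 and 349 in EIF2A, where TMM gave 1140 and 911, and 1414 and 288 in GFP, where TMM gave 756 and 589. That scaling added Dusp4 (0.84, adjusted p = 0.0494) in EIF2A and Dusp1 (0.77, adjusted p = 0.0271) in GFP at 3 h, and Dusp8 (1.08, adjusted p = 0.0268) in EIF2A at 3 h over 1 h.

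No change of sign touched a value that passed in the unpaired test of all libraries. With library totals alone the sign turned for Dusp1 (0.14), Dusp4 (0.08) and Dusp14 (0.07) in EIF2A at 3 h over 1 h, and between constructs for Dusp14 (−0.04) and Dusp16 (−0.05) at 0 h and Dusp16 (−0.06) at 1 h. With the block and without replicate 1 it turned for Dusp14 in EIF2A at 3 h (−0.01), Dusp4 in EIF2A at 3 h over 1 h (0.01), Dusp10 in GFP at 3 h (−0.08), and Dusp1 (−0.02) and Dusp14 (−0.02) in GFP at 3 h over 1 h. In that fit it also turned between constructs for Dusp14 at 0 h (−0.12) and Dusp10 at 1 h (0.04), which was 0.01 with RLE, 0.01 with DESeq2 and 0.00 with the block. For the difference in response the sign turned in the fit with the block and without replicate 1 for Dusp16 at 1 h (−0.30) and 3 h (−0.04), Dusp8 at 1 h (−0.08) and Dusp6 at 3 h (−0.29). Its sign changes under the other settings are not listed here.

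Leaving out libraries turned signs as follows, lowest to highest. In EIF2A these were Dusp6 at 1 h (−0.53 to 2.25), Dusp6 (−1.19 to 1.89), Dusp5 (−0.03 to 1.31) and Dusp14 (−0.10 to 0.22) at 3 h, and at 3 h over 1 h Dusp1 (−0.22 to 0.15), Dusp4 (−0.41 to 0.36), Dusp5 (−0.95 to 0.31), Dusp6 (−2.09 to 1.06) and Dusp14 (−0.31 to 0.03). In GFP they were Dusp10 at 3 h (−0.17 to 0.13), and Dusp1 (−0.35 to 0.40) and Dusp14 (−0.07 to 0.08) at 3 h over 1 h. Between constructs they were Dusp14 (−0.12 to 0.13) and Dusp16 (−0.12 to 0.42) at 0 h, Dusp1 (−0.48 to 0.01), Dusp10 (−0.02 to 0.04), Dusp14 (−0.23 to 0.07) and Dusp16 (−0.03 to 0.12) at 1 h, and Dusp1 (−0.61 to 0.01) and Dusp10 (−0.26 to 0.03) at 3 h. The difference in response was followed over all these fits only for Dusp1 at 1 and 3 h and Dusp4 at 3 h. It turned at 3 h for Dusp1 (−0.12 to 0.50) and Dusp4 (−0.16 to 0.69). Other members were not followed and turned too, such as Dusp16 at 1 h, from 1.01-fold with all libraries to 0.810-fold without replicate 1. The cause was not tested. Depth limits Dusp2, which was too low to test.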
